A study of Mus musculus with 4 samples.

Results

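Transcripts that mark blood vessel endothelium were followed in RNA-seq libraries of mouse skeletal muscle, in isolated mitochondria and in the tissue that remained. The members were 10 genes, Pecam1, Cdh5, Kdr, Flt1, Tie1, Tek, Egfl7, Cldn5, Eng and Vwf, taken by name from the 16472 genes of the deposited table, and all 10 were found. No cut on their values was used, but they were chosen with earlier results of these data known. The animals were wild type (labelled WT) and no treatment other than the fractionation was named. There were 2 libraries of isolated mitochondria and 2 libraries of remaining tissue, which the labels describe as tissue minus mitochondria although their titles call it total. The study's legend for this comparison also names total muscle lysate. Whether mitochondria had been removed is therefore not settled, and the name remaining tissue follows the labels. Nothing in the labels says whether replicates came from separate animals, so the p-values measure only the spread between these libraries, which may be technical. The comparison asks which RNAs remain with a mitochondrial preparation, and for the members, which are nuclear genes of a cell type other than the muscle fibre, how much endothelial RNA was found there.

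Endothelial cells line every vessel, and in skeletal muscle most of them belong to the capillaries that run along the fibres. They hold together through VE-cadherin (Cdh5), PECAM-1 (Pecam1) and the tight junction protein claudin-5 (Cldn5), and they respond to vascular endothelial growth factors through VEGFR2 (Kdr) and VEGFR1 (Flt1) and to angiopoietins through TIE2 (Tek) with its partner TIE1 (Tie1). Endoglin (Eng) is a co-receptor for ligands of the TGF-beta and BMP family, EGFL7 (Egfl7) is secreted into the vessel matrix, and von Willebrand factor (Vwf) is a secreted clotting protein stored in granules. In Gene Ontology, 0 of the 9 annotated members carried the term mitochondrion, against 13.1% of 10520 annotated genes of the table. The term plasma membrane was carried by 8 members and by 22.2% of the annotated genes. Kdr had no annotation there.

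The sequences upstream of the RefSeq start of the 3 receptor genes that hold the same short motif are shown, because these genes are used as endothelial markers for their restricted transcription. They are the 250 bases before the transcription start in RefSeq, on GRCm38.p6, written 5′ to 3′. Capitals mark GGAAGT or its reverse complement ACTTCC, a core bound by ETS family factors, which was chosen after the windows were seen.
Kdr, chr5:75978456-75978705, minus strand: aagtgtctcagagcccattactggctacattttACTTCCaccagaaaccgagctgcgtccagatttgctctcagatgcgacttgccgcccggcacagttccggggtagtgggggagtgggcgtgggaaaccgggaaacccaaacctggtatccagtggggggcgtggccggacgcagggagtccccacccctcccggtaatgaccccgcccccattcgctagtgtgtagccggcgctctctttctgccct
Flt1, chr5:147726012-147726261, minus strand: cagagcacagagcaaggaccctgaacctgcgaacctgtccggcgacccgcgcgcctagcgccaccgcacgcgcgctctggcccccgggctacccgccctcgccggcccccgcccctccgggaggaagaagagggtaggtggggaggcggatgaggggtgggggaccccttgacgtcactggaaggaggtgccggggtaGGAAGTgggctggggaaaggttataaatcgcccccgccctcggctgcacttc
Tie1, chr4:118489850-118490099, minus strand: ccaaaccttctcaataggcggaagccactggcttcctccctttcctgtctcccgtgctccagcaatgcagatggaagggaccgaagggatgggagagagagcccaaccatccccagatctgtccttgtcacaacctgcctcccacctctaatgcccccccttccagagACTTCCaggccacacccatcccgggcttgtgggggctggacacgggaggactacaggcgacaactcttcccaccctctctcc
The motif began 217 bases before the RefSeq start in Kdr, 52 bases in Flt1 and 82 bases in Tie1. For Tie1 the starts differ between annotations. By the gene location given below, Tie1 begins at 118490061 on the minus strand, inside this window. On that location the Tie1 motif lies within the gene and not before its start. Over windows of 250 bases before to 50 after the start, on both strands, it was found in 5 of the 7 members that have an entry (Kdr, Flt1, Tie1, Eng and Egfl7; not in Tek or Cldn5), which is 71.4%, against 26.5% of 27025 genes. A match of letters is a description and no measure of binding.

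The summed level of the members was lower in isolated mitochondria. Levels are normalized counts, that is, reads per gene divided by a size factor of each library. The median ratio between libraries is near equal only over the 8993 genes above 0 in all of them. The median log2 fold change of all genes tested was -0.44. The sum was 750 and 778 in the remaining tissue and 234 and 262 in isolated mitochondria. Both libraries of isolated mitochondria lay below both of remaining tissue, and the means of 764 ± 19.8 and 248 ± 19.8 (SD, n = 2 each) differed 3.08-fold, a log2 ratio of -1.62. The smallest two-sided p of an exact permutation test with 2 libraries against 2 is 0.333, above any usual threshold, and no test of the sum was run. The libraries are fractions of bulk tissue, so the values give the endothelial RNA found in each preparation. They do not give the number of endothelial cells or the RNA per cell, and why the level was lower was not tested. On another scale, per 1000000 reads of named nuclear protein-coding genes, the members took 491 and 520 in the remaining tissue and 333 and 353 in isolated mitochondria. The 95% Wilson intervals were 227 to 488 and 269 to 463 for the libraries of isolated mitochondria. From estimated reads they were 478 to 505 and 507 to 534 for the remaining tissue. The library values did not overlap between the groups on that scale either, at a log2 ratio of -0.56. The intervals of replicate 1 of both groups did overlap, so that difference is less certain.

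The depth behind these levels was small in isolated mitochondria. Genes encoded in the mitochondrial genome took 95.3% and 94.1% of the 42750315 and 35305097 reads there, against 22.3% and 20.5% of an estimated 15704066 and 15301891 reads in the remaining tissue. The members rested on 26 and 52 reads in the isolated mitochondria, 0.608 and 1.47 per 1000000 of all reads, where 1 read equals 9.05 normalized counts in replicate 1 and 5.06 in replicate 2. A count of 0 in a library allows up to 3 reads, which is 27.1 normalized counts in replicate 1 and 15.2 in replicate 2. Ratios of pooled reads are given with exact 95% intervals, and these, like the limits at 0, cover counting error only. For the sum the ratio was 0.331, with an interval of 0.262 to 0.414. Markers of the labelled tissue were present, with 14 of 14 myofibre genes tested.

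**Figure D1:**
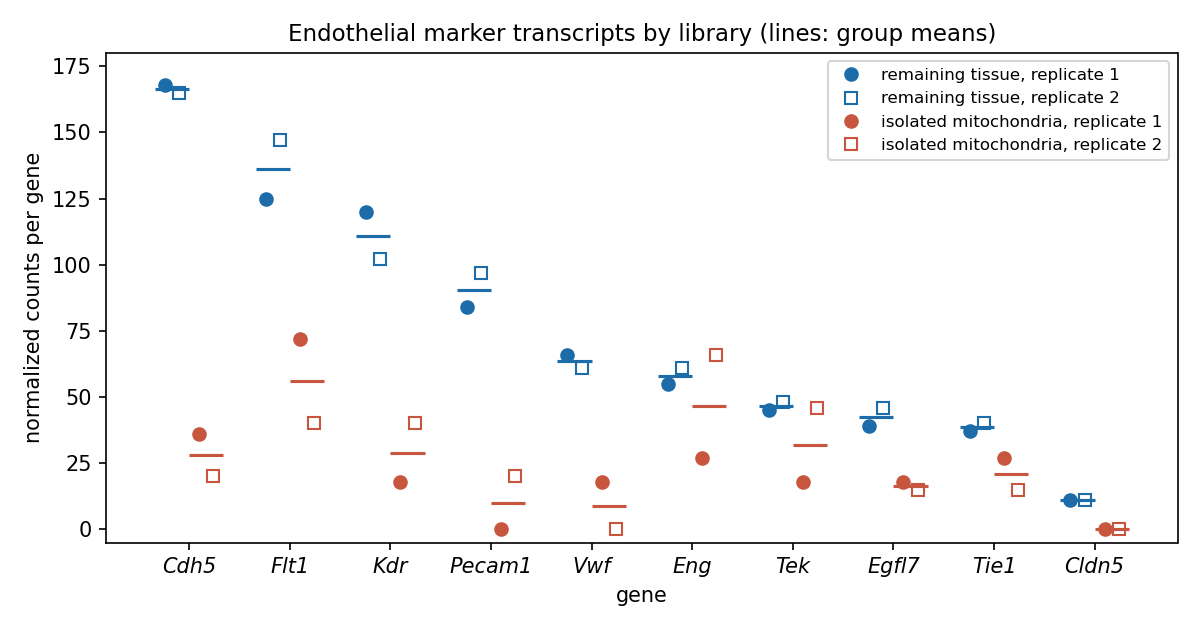
Normalized counts (y axis) of the 10 endothelial marker genes (x axis) in each of the 4 libraries, with lines at the group means. Cdh5 has the widest gap, from 165 and 168 down to 20 and 36, while Eng and Tek have a library of isolated mitochondria at the level of the remaining tissue.

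Among the adhesion genes Cdh5 fell, Pecam1 had low values that did not pass the test, and Cldn5 could not be tested. Cdh5 (chr8:104101625-104144511, plus strand, GRCm38 as for all genes here) had 168 and 165 normalized counts in the remaining tissue and 36 and 20 in isolated mitochondria, from 4 reads in each of the latter. The groups lay far apart, and Cdh5 was the only member to pass the test, with a log2 fold change of -2.59 ± 0.37 (SE) at an adjusted p of 0.0249, by limma with Benjamini-Hochberg adjustment over 6916 genes. The pooled read ratio was 0.156 (0.0672 to 0.308). The Cdh5 call was lost without remaining tissue replicate 1 (adjusted p = 0.107, limma) or replicate 2 (adjusted p = 0.0989, limma), and over the alternatives its adjusted p ran from 6.15e-06 to 0.107.

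Pecam1 (chr11:106654217-106750628, minus strand) had 84 and 97 normalized counts in the remaining tissue and 0 and 20 in isolated mitochondria, from 0 and 4 reads. The groups did not overlap, but the libraries of isolated mitochondria differed widely, with a log2 fold change of -4.32 ± 1.60 (SE) at an adjusted p of 0.139 by limma. The fitted value depends on the pseudocount, at -3.09 with 5 in place of 1, and on the library, at -2.12 without isolated mitochondria replicate 1 and -6.51 without replicate 2 (adjusted p = 0.0198 and 0.0107, limma). The read ratio of 0.143 (0.0390 to 0.368) does not use it. Cldn5, a gene with 1 exon (chr16:18776847-18778262, plus strand), had 11 normalized counts in both libraries of remaining tissue and 0 reads in both of isolated mitochondria. Its tissue level lay below the limit that a count of 0 allows in each library, so no ratio is given, a difference was not detectable at this depth, and the gene did not reach the minimum mean of 20 for the test.

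The receptors for vascular endothelial growth factors were lower without passing the test. Kdr, the main signalling receptor (chr5:75932827-75978458, minus strand), had 120 and 102 normalized counts in the remaining tissue and 18 and 40 in isolated mitochondria, from 2 and 8 reads. Its log2 fold change was -2.0 ± 0.46 (SE) at an adjusted p of 0.0599 by limma, and the read ratio was 0.292 (0.140 to 0.539). Flt1, which binds the same ligand and acts largely as a decoy (chr5:147561604-147726011, minus strand), had 125 and 147 normalized counts in the remaining tissue and 72 and 40 in isolated mitochondria, from 8 reads in each. Its log2 fold change was -1.32 ± 0.37 (SE) at an adjusted p of 0.0867 by limma, with a read ratio of 0.382 (0.218 to 0.622). Neither gene had overlapping groups. Kdr was called at an adjusted p of 0.0321 without isolated mitochondria replicate 1 and 0.0168 without replicate 2 (limma), and Flt1 at 0.0265 without replicate 1. In these fits the lone library of isolated mitochondria is assumed to vary like those of the remaining tissue.

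The angiopoietin receptors lay closer to their tissue level. Tie1 (chr4:118471191-118490061, minus strand) had 37 and 40 normalized counts in the remaining tissue and 27 and 15 in isolated mitochondria, from 3 reads in each, and the groups did not overlap. Tek (chr4:94739289-94874976, plus strand) had 45 and 48 against 18 and 46, from 2 and 9 reads, and its groups overlapped. The log2 fold changes were -0.90 ± 0.44 (SE) at an adjusted p of 0.220 by limma for Tie1 and -0.67 ± 0.54 (SE) at an adjusted p of 0.409 by limma for Tek. The read ratios were 0.506 (0.185 to 1.11) and 0.768 (0.382 to 1.38), both with 1 inside the interval. With the total of named nuclear protein-coding genes as the scale, both fold changes turned positive, to 0.12 and 0.36.

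Eng was the member with the smallest difference among those tested. The gene (chr2:32646595-32682669, plus strand) had 55 and 61 normalized counts in the remaining tissue and 27 and 66 in isolated mitochondria, from 3 and 13 reads. The highest library of the 4 was thus isolated mitochondria replicate 2, and the groups overlapped. The log2 fold change was -0.44 ± 0.51 (SE) at an adjusted p of 0.550 by limma, the read ratio was 0.895 (0.509 to 1.46), and the sign turned to 0.19 without isolated mitochondria replicate 1. Eng shares 61 bases of exon with Fpgs on the opposite strand, and since the strand setting of the counting is not given in the sources used here, its count is uncertain there.

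The secreted members were lower in all libraries of isolated mitochondria. Vwf (chr6:125546774-125686679, plus strand) had 66 and 61 normalized counts in the remaining tissue and 18 and 0 in isolated mitochondria, from 2 and 0 reads. Its log2 fold change was -3.89 ± 1.59 (SE) at an adjusted p of 0.163 by limma, and its read ratio of 0.102 (0.0124 to 0.370) was the lowest among the members with a read. With a library at 0 the fitted value depends on the pseudocount, at -2.67 with 5 in place of 1, and on the library, at -6.01 without isolated mitochondria replicate 1 and -1.76 without replicate 2 (adjusted p = 0.0134 and 0.0135, limma). Egfl7 (chr2:26580014-26593120, plus strand) had 39 and 46 normalized counts in the remaining tissue and 18 and 15 in isolated mitochondria, from 2 and 3 reads. Its log2 fold change was -1.31 ± 0.37 (SE) at an adjusted p of 0.0868 by limma, with a read ratio of 0.382 (0.124 to 0.896). Egfl7 shares exon sequence with Gm20532 (264 bases, same strand), Mir126a, Mir126b and Agpat2, so part of its count is uncertain.

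**Figure D2:**
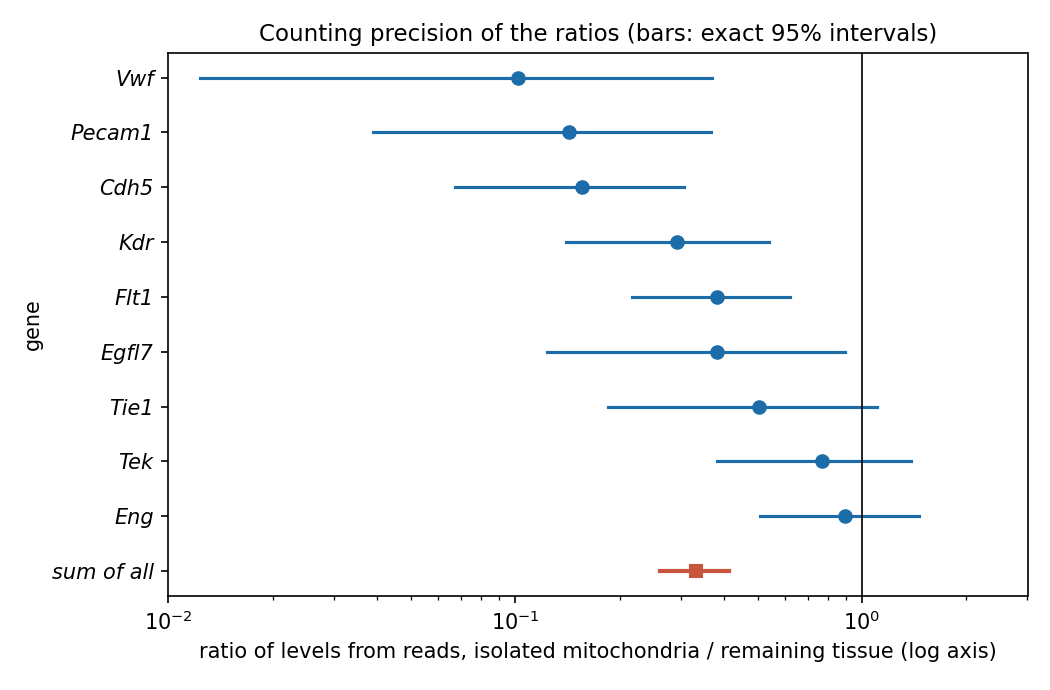
Ratio of levels from pooled reads, isolated mitochondria over remaining tissue (x axis, log scale), for the 9 members with a read and for their sum, with exact 95% intervals for counting error. The intervals of 6 members and of the sum lie below 1, and those of Tie1, Tek and Eng hold 1.

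Of the 10 members, 9 passed the minimum mean of 20 over the 4 libraries, and 8 of those 9 would have passed on the remaining tissue alone with Tie1 the exception. Of the 9, 1 was called lower (11.1%) and 0 higher by limma, where 9.3% of all 6916 genes tested were called lower and 7.32% higher. The share called is near the background and is no result about the members. At an unadjusted p under 0.05, 4 of the 9 were lower, against 21.9% of all genes tested. By edgeR 5 members were called lower (17.6% of all genes tested), by edgeR with TMM 4 (12.6%) and by DESeq2 5 (19.2%), and none was called higher by any of them. Without isolated mitochondria replicate 1 or 2 the count called lower was 7 (all tested but Tek and Eng) or 8 (all tested but Flt1), where the share of all genes tested rose to 40.1% and 46.2%. Without remaining tissue replicate 1 or 2 it was 0, where that share was 2.54% and 2.72%. Groups did not overlap, with isolated mitochondria lower, for 7 of the 9 tested, against 43.7% of all genes tested. All 9 fold changes were negative, against 63.1% over all genes tested. The median log2 fold change was -1.32 for the members and -0.44 for all genes tested, a difference of -0.88, and over the settings the difference ran from -1.25 to -0.77. The intervals of the read counts of replicates 1 and 2 of isolated mitochondria overlapped for 10 of 10 members.

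**Figure D3:**
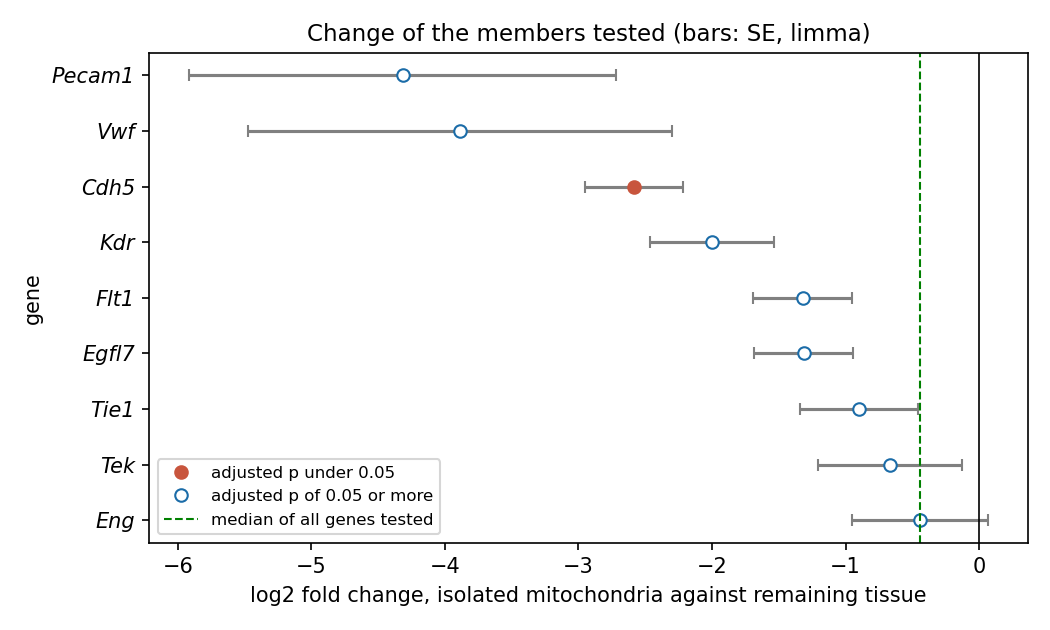
Log2 fold change of isolated mitochondria against remaining tissue (x axis) for the 9 members tested (y axis), with bars for the SE and a dashed line at the median of all genes tested. Only Cdh5 (-2.59) has an adjusted p under 0.05, and Pecam1 and Vwf have the largest errors (1.60 and 1.59).

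The members also differed in their share of the summed level, which within a library does not depend on its scaling. Cdh5 gave 22.4% and 21.2% of the sum in the remaining tissue and 15.4% and 7.63% in isolated mitochondria. Eng lay the other way, at 7.33% and 7.84% against 11.5% and 25.2%, and Tek at 6.0% and 6.17% against 7.69% and 17.6%. For all 3 the groups did not overlap, and isolated mitochondria replicate 2 lay farther from the tissue than replicate 1. These 3 were named after the shares were seen. The groups did not overlap for Pecam1, Tie1, Cldn5 and Vwf either, so this does not set the 3 apart. In isolated mitochondria replicate 1 the shares of Cdh5, Eng and Tek rested on 4, 3 and 2 reads. Shares of a library add up to the whole, so a fall in one raises others. In the pooled reads of isolated mitochondria the 95% Wilson intervals were 5.29% to 19.0% for Cdh5, 13.0% to 30.8% for Eng and 8.06% to 23.5% for Tek, none of which holds the mean tissue share of 21.8%, 7.59% or 6.09%. The interval of Pecam1, 2.01% to 12.5%, holds its tissue share of 11.8%. Flt1 and Eng had 16 pooled reads each, the most of any member. Each member left out in turn gave a log2 ratio of the sum between -1.81 (without Eng) and -1.44 (without Cdh5).

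In the remaining tissue the levels can be ordered per length, as normalized counts per kilobase of exon. Cdh5 was highest at 39.6, followed by Pecam1 at 14.5, Eng at 14.3, Kdr at 12.3, Egfl7 at 11.9, Flt1 at 10.1, Tek at 9.87, Tie1 at 7.83, Cldn5 at 7.77 and Vwf at 3.95. The ranges over the 2 libraries overlapped between Pecam1 and Eng, Kdr and Egfl7, Flt1 and Tek, and Tie1 and Cldn5, so these neighbours do not differ beyond their spread. With the longest transcript as the length, a choice made after the data were seen, Cdh5 (41.7) and Vwf (7.19) kept the ends of the order, but Egfl7 at 22.8 and Flt1 at 19.7 stood above Kdr at 18.7 and Eng at 16.9. Per gene, without the length, Cdh5 was also first, and Vwf stood near the middle at 66 and 61. In isolated mitochondria the members rested on 0 to 16 pooled reads each, too few to order their levels.

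The genes that act with the members were described from 7 lists, of which 49 of 104 genes were tested. Of the 49, 6 were called lower (limma, against 9.3% of all genes tested) and 4 higher (against 7.32%). With a library left out, which leaves a group with a single library, these counts rose or fell depending on the library, as did those of all genes tested. The lists and the calls per list are counts and medians, with no test of a list. Some list medians depended on the minimum mean of 20. Without it the median was -1.88 for the Notch list (-0.42 with it) and -1.96 for capillary lipid and water handling (-0.82 with it). For VEGF and angiopoietin ligands and co-receptors it was -0.86 (-1.46 with it).

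Around Kdr, Flt1 and Tek, the list of VEGF and angiopoietin ligands and co-receptors had 2 of 5 tested genes lower and 0 higher, with a median log2 fold change of -1.46. Ptprb, the vascular phosphatase that acts on TIE2, had 200 and 234 normalized counts in the remaining tissue and 63 and 40 in isolated mitochondria, a log2 fold change of -2.09 (adjusted p = 0.0277, limma). Vegfa, the ligand of Kdr and Flt1, which muscle fibres also make, had 321 and 345 against 109 and 132, a log2 fold change of -1.46 (adjusted p = 0.0253, limma). Both calls were lost without remaining tissue replicate 1 (adjusted p of 0.0941 and 0.209, limma) or replicate 2 (0.175 and 0.275).

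Around Eng, 1 of 9 tested genes of the endoglin and BMP pathway was lower and 0 were higher, with a median of -0.43, close to the -0.44 of all genes tested. The gene was Bmpr2, the type II BMP receptor, at 313 and 312 normalized counts in the remaining tissue and 118 and 111 in isolated mitochondria. Its log2 fold change of -1.44 (adjusted p = 0.0225, limma) lost the call without remaining tissue replicate 1 (adjusted p = 0.261, limma) or replicate 2 (adjusted p = 0.265, limma). The Notch pathway of arteries had 0 of 5 tested genes called, with a median of -0.42, and the junction partners of Cdh5 and Cldn5 had 0 of 5 called, with a median of -0.03 (limma). At an unadjusted p under 0.05 there were 1 and 0 lower and 0 higher in both, against 21.9% lower and 15.1% higher over all genes tested. By edgeR, edgeR with TMM and DESeq2, 1 was called lower in each list, against 17.6%, 12.6% and 19.2% of all genes tested. Notch1, an arterial receptor, had 57 and 62 normalized counts against 45 and 25. Ctnnb1, the catenin that binds VE-cadherin, had 223 and 205 against 136 and 324, so its groups overlapped where those of Cdh5 did not.

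Endothelial transcription factors had 2 of 8 tested genes lower and 1 higher, with a median of -1.12. Mef2c, which muscle fibres also use, had 973 and 940 normalized counts in the remaining tissue and 100 and 273 in isolated mitochondria, a log2 fold change of -2.52 (adjusted p = 0.0492, limma). The Mef2c call lay at the threshold and was lost without the filter (adjusted p = 0.0929, limma), at a mean of at least 5 (0.0886), under the upper quartile (0.0534), quantile normalization (0.0740) and the total of named nuclear protein-coding genes (0.115), and without the trend (0.0791). The other lower gene was Ets2, an ETS factor named here after its values were seen, with a log2 fold change of -1.73 (adjusted p = 0.0494, limma), a call lost without remaining tissue replicate 1 (adjusted p = 0.525, limma) or replicate 2 (adjusted p = 0.548, limma). Lmo2, a transcription adaptor of endothelial and blood cells, had 7 and 8 normalized counts in the remaining tissue and 72 and 81 in isolated mitochondria, from 8 and 16 reads. Its log2 fold change of 3.19 (adjusted p = 0.0197, limma) was positive on the deposited scale and turned to -3.36 with all genes as the scaling total. The Lmo2 call was lost without remaining tissue replicate 1 (adjusted p = 0.0797, limma) or replicate 2 (adjusted p = 0.0621, limma).

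Other endothelial surface and secreted markers spread to both sides, with 0 of 12 tested genes called lower and 3 higher by limma and a median of 0.79. At an unadjusted p under 0.05 (limma), 1 was lower and 4 were higher, against 21.9% and 15.1% of all genes tested. DESeq2 called 1 lower and 5 higher, edgeR 0 and 3, and edgeR with TMM 0 and 4. Of all 6916 genes tested, DESeq2 called 1330 lower and 1171 higher, edgeR 1217 and 940, and edgeR with TMM 871 and 1106. Their sum was 775 and 893 normalized counts in the remaining tissue and 1401 and 1485 in isolated mitochondria. The median depended on the filter. Without it, 24 genes had a median of -0.95, where all genes had -0.68. Of these 24, limma called 4 lower and 3 higher, against 3026 and 665 of all 16472 genes. At a mean of at least 5, 22 genes had a median of -0.77, where all genes had -0.41. Ramp2, a receptor partner for adrenomedullin, had 12 and 12 normalized counts in the remaining tissue and 353 and 126 in isolated mitochondria, from 39 and 25 reads, a log2 fold change of 4.03 (adjusted p = 0.0249, limma). Lama4, a laminin chain of vessel basement membrane, had 72 and 72 against 172 and 293, a log2 fold change of 1.63 (adjusted p = 0.0469, limma), a call lost without remaining tissue replicate 1 (adjusted p = 0.176, limma) or replicate 2 (adjusted p = 0.185, limma). Cd34, which fibroblast-like cells of muscle carry too and which was named after its values were seen, had 57 and 56 against 208 and 319, a log2 fold change of 2.17 (adjusted p = 0.0231, limma). With all genes as the scaling total these 3 values were negative, at -2.70, -5.18 and -4.64. At the low end of the list, Robo4 and Emcn, both largely endothelial, had 0 reads in both libraries of isolated mitochondria, as Cldn5 did, from 20 and 27 and from 8 and 12 normalized counts in the remaining tissue. They were also named after their values were seen. Genes of capillary lipid and water handling had 1 of 5 lower and 0 higher, with a median of -0.82. Aqp1, the water channel of capillaries, had 153 and 192 against 54 and 61 (log2 fold change -1.56, adjusted p = 0.0297, limma), a call lost without remaining tissue replicate 1 (adjusted p = 0.256, limma) or replicate 2 (adjusted p = 0.447, limma).

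**Figure D4:**
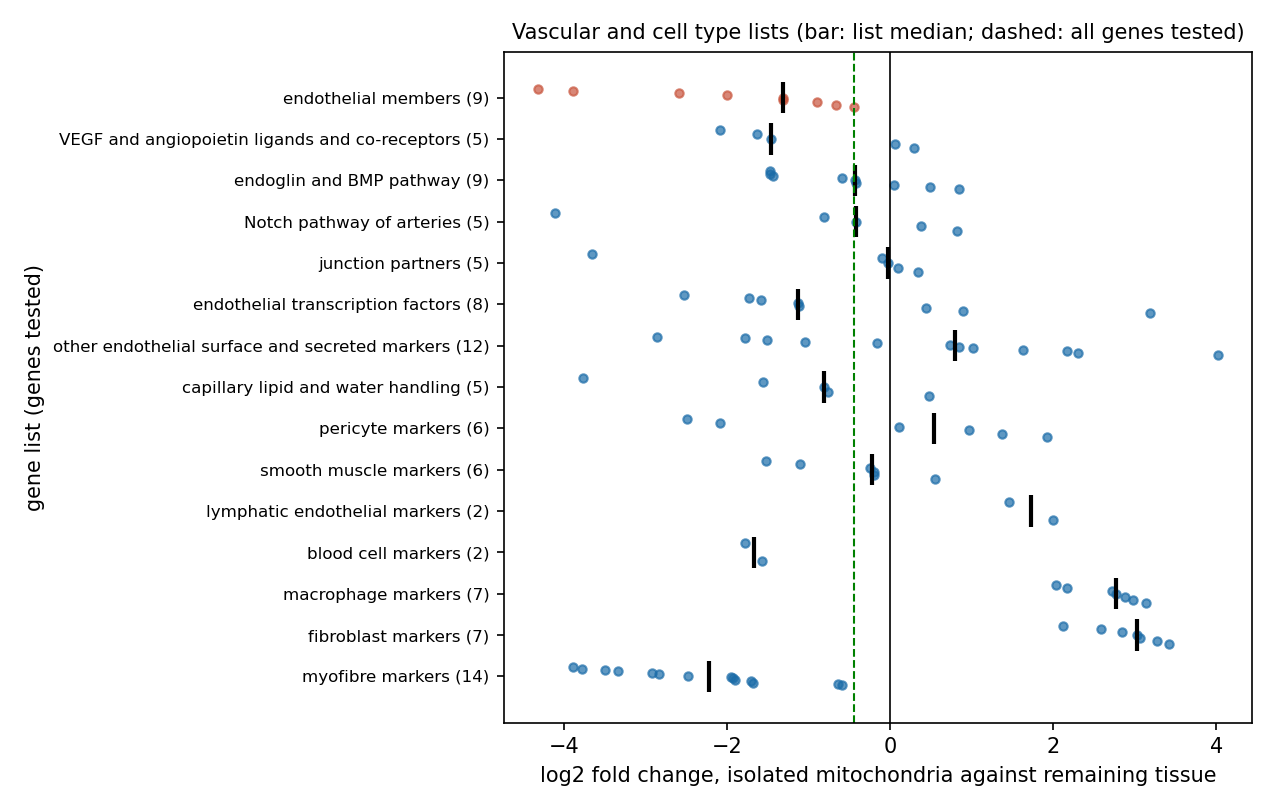
Log2 fold change of isolated mitochondria against remaining tissue (x axis) for the tested genes of each list (y axis), with a bar at the list median and a dashed line at the median of all genes tested. The endothelial members (median -1.32) lie between the myofibre markers (-2.22) and the fibroblast and macrophage markers (3.03 and 2.78), and the other endothelial surface and secreted markers (0.79) spread to both sides.

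Markers of other cells that muscle holds moved in both directions beside the endothelial members. Of 14 myofibre markers tested, 11 were lower and 0 higher, with a median of -2.22. Their sum was 635351 and 614000 normalized counts in the remaining tissue and 82653 and 73948 in isolated mitochondria. Ttn, the giant sarcomere protein, had a log2 fold change of -3.88 (adjusted p = 0.00849, limma), and Mylpf, a fast-fibre myosin light chain, had -1.68 (adjusted p = 0.0151, limma). Of 7 fibroblast markers tested, 0 were lower and 7 higher, with a median of 3.03 and sums of 1619 and 1735 against 10470 and 19112. Col3a1, a fibrillar collagen, had 437 and 514 against 3511 and 7351 (log2 fold change 3.42, adjusted p = 0.0197, limma), and Pdgfra, a receptor of these cells, had 67 and 65 against 290 and 293 (2.13, adjusted p = 0.0132, limma). Of 7 macrophage markers tested, 0 were lower and 6 higher, with a median of 2.78 and sums of 109 and 132 against 767 and 925. C1qc, a complement subunit, had 9 and 12 against 72 and 137 (3.14, adjusted p = 0.0264, limma), and Cd163, a scavenger receptor, had 18 and 22 against 81 and 106 (2.16, adjusted p = 0.0258, limma). The number of macrophage markers called was 3 and 4 without remaining tissue replicates 1 and 2. With all genes as the scaling total, the fold changes of Col3a1, Pdgfra, C1qc and Cd163 were negative, from -4.70 to -3.47. The part of these cells in the members' values was not tested.

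A comparison within a library needs no scaling. The members' sum was 46.3% and 44.8% of the fibroblast sum in the remaining tissue and 2.23% and 1.37% in isolated mitochondria. Against the macrophage sum it was 688% and 589%, and then 30.5% and 28.3%. Against the myofibre sum it was higher in isolated mitochondria, at 0.283% and 0.354% against 0.118% and 0.127%. In none of the 3 did the groups overlap, so as sums the endothelial members were lower relative to fibroblast and macrophage markers and higher relative to myofibre markers. The myofibre sum is led by Ttn (280729 and 251732 in the remaining tissue) and Myh4 (130847 and 139440). Tnnc2 and Mb, at log2 fold changes of -0.60 and -0.64, changed less than the members' sum (-1.62). The other myofibre markers fell more than that sum. No test of these percentages was run.

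Vessel wall and blood markers gave mixed values, and their part in the result was not tested. Pericyte markers had 1 of 6 tested genes lower and 1 higher, with a median of 0.54 and sums of 1017 and 935 against 479 and 632. Abcc9, a channel subunit of pericytes, had 458 and 434 against 81 and 76 (log2 fold change -2.49, adjusted p = 0.00961, limma), and Cspg4, the NG2 proteoglycan, had 32 and 32 against 145 and 106 (1.92, adjusted p = 0.0265, limma), a call lost without remaining tissue replicate 1 (adjusted p = 0.191, limma) or replicate 2 (adjusted p = 0.196, limma). With all genes as the scaling total, Cspg4 was negative, at -4.83. The members' sum was 73.7% and 83.2% of the pericyte sum in the remaining tissue and 48.9% and 41.5% in isolated mitochondria. Smooth muscle markers had 1 of 6 lower and 0 higher, with a median of -0.22 and sums of 5025 and 4707 against 2553 and 2377. The gene was Des, an intermediate filament protein that muscle fibres also hold in quantity, with a log2 fold change of -1.10 (adjusted p = 0.0248, limma), a call lost without remaining tissue replicate 1 (adjusted p = 0.256, limma) or replicate 2 (adjusted p = 0.203, limma).

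Lymphatic endothelial markers had 0 of 2 tested genes called by limma, with a median of 1.73 and sums of 54 and 52 against 99 and 141. At an unadjusted p under 0.05 (limma) 2 were higher, and edgeR, edgeR with TMM and DESeq2 called 1, 2 and 2 higher. Both genes, Reln and Lyve1 (named after its values were seen), reached the minimum mean only through isolated mitochondria, so the filter favoured a positive median. Without the filter, 6 genes had a median of 0.17, where all genes had -0.68. Reln, a secreted matrix protein, had 20 and 17 against 54 and 51 normalized counts. Platelets and their precursors also carry Vwf and Pecam1. Of 7 of their markers, 2 had values here and 1 was tested without being called, with sums of 5 and 7 in the remaining tissue and 36 and 56 in isolated mitochondria. Pf4, a platelet chemokine, had 3 and 5 against 36 and 46, from 4 and 9 reads, where Vwf had 2 and 0 reads. Pf4 was called higher by edgeR, edgeR with TMM and DESeq2, where 940, 1106 and 1171 of all 6916 genes tested were. Like Reln, Pf4 reached the minimum mean only through isolated mitochondria. Blood cell markers had 0 of 2 tested genes called by limma, with a median of -1.67 and sums of 176 and 189 against 126 and 60, 0 at an unadjusted p under 0.05, and 1 lower by DESeq2 and 0 by edgeR with or without TMM. Hba-a1, an alpha globin with a near-identical copy, had 57 and 61 against 36 and 10, from 4 and 2 reads. Endothelial cells, platelets and macrophages share Pecam1, and the RNA of one cannot be told from another by that gene.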

How the data were processed

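RNA from wild-type mouse skeletal muscle was sequenced by the authors in 2 libraries of isolated mitochondria and 2 of remaining tissue (single-end reads, a stranded kit for small inputs, with the fragmentation time of mitochondrial samples adjusted, which coincides with the groups). For the heart the study describes digitonin and RNase A treatment of mitochondria. Per the submitters' processing notes, reads were trimmed with Trimmomatic 0.39, aligned with STAR 2.7.10a and counted per gene with featureCounts 2.0.2, and DESeq2 1.30.1 supplied the scaling; the study's methods name the same tools with other versions for all but Trimmomatic. The deposited values are a signal, gene counts divided by a size factor and rounded, called normalized counts here. The authors' own fold changes and p-values were not used.

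From these values, whole reads were recovered in the isolated mitochondria from the step between low values (under 2000; 100% of 10508 and 11660 values whole within 0.51), and tissue reads were estimated at 7.05 per normalized count from the median ratio over 8993 genes above 0 in all libraries. Precision was set by the total of reads, from an estimated 15301891 in the remaining tissue to 42750315 in isolated mitochondria, of which 78089 and 147172 came from named nuclear protein-coding genes in the latter. Samples were grouped by their labels. Genes whose 4 libraries averaged at least 20 (6916 of 16472) were fitted with limma 3.58.1 (R 4.3.3; lmFit, eBayes with trend, no covariate) on log2(normalized count + 1), where the pseudocount of 1 is less than 1 read of isolated mitochondria, so that fitted fold changes of genes with a library at 0 exceed the ratio of their reads, with Benjamini-Hochberg adjustment and a threshold of 0.05. A gene low in the remaining tissue could reach the minimum mean only through isolated mitochondria, as Lmo2, Ramp2, Cspg4, Lyve1, Reln, Pf4 and the macrophage markers tested did. The fit was tested on simulated data. Alternatives were other pseudocounts, filters and scalings, the replicate number as a block, each library left out, and edgeR 4.0.16 and DESeq2 1.42.0 on recovered and estimated reads. Locations follow GRCm38, and exon lengths and overlaps GENCODE M21; BLAST 2.17.0 was used to look for near-identical stretches of at least 50 bases and 95% identity. The members and gene lists were chosen with earlier results of these data known. Genes named were the 10 members, the tested gene with the highest and the lowest fold change among those called in each list, or otherwise the list's gene with the highest tissue mean, and those said to be named after their values were seen. Myh4, Tnnc2 and Mb were also named after their values were seen. Actb, Gapdh and mt-Co1 were reserved as references and no result turned on them.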

Additional observations from a re-analysis of the deposited data

How the results depend on the processing

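The number of members called lower (1) was 3 without the filter, 0 at a mean of at least 5, 9 when scaled to all genes, 9 when scaled to genes outside the mitochondrial genome, 0 when scaled to named nuclear protein-coding genes, 5 by edgeR, 4 by edgeR with TMM, 5 by DESeq2, and 0 to 8 with each replicate left out in turn; no setting called a member higher. In the same order the number of all genes lower (643) was 3026, 399, 6694, 5642 and 155, then 1217 by edgeR and 1330 by DESeq2, with 384 under quantile normalization, 374 without the trend, and 176 to 3198 with a replicate left out. The number of all genes higher (506) was 283 at a mean of at least 5, 38, 114 and 1438 under the 3 totals, 940 by edgeR, 1106 by edgeR with TMM, 1171 by DESeq2, and 296 to 1724 with a replicate left out. Of the calls, 44.0% were higher, against 0.564%, 1.98% and 90.3% under the 3 totals, 55.5% under the upper quartile, 55.1% under quantile normalization and 55.9% by edgeR with TMM. Those scalings moved the median log2 fold change of all genes from -0.44 to -6.90, -3.34, 0.59, -0.21, -0.31 and -0.04. In the vascular lists, the 6 lower were 15, 3, 49, 39 and 0 over the same 5 filters and totals, 3 under quantile normalization, 1 without the trend, 11 by edgeR, 10 by edgeR with TMM, 12 by DESeq2, and 1 to 20 with a replicate left out. The 4 higher there were 2 at a mean of at least 5, 0, 0 and 10 under the totals, 7 by DESeq2, and 2 to 14 with a replicate left out. In the lists of other cells, the totals of all genes and of genes outside the mitochondrial genome gave 45 and 27 lower (13) and 0 and 0 higher (14). The log2 ratio of the members' sum (-1.62) was -8.39, -4.55 and -0.56 under the totals, -1.39 under the upper quartile, -1.50 without Pecam1, -1.44 without Cdh5, -1.71 without Flt1, -1.73 without Tek and -1.81 without Eng. The cause of these changes was not tested.

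The sign reversed when scaled to named nuclear protein-coding genes for Tie1 (0.12), Tek (0.36), Eng (0.59), Notch1 (0.23) and Ctnnb1 (1.03), by edgeR with TMM for Eng (0.062) and Ctnnb1 (0.40), and without isolated mitochondria replicate 1 for Eng (range with a replicate left out -1.07 to 0.19). Ctnnb1 also turned to 0.20 under the upper quartile, 0.40 under quantile normalization, 0.17 by edgeR, 0.14 by DESeq2, and 0.03 without remaining tissue replicate 1 and 0.60 without isolated mitochondria replicate 1 (range with a replicate left out -0.65 to 0.60). Scaled to all genes, Lmo2 was -3.36, Lama4 -5.18, Ramp2 -2.70, Cd34 -4.64, Cspg4 -4.83, Reln -5.11, Pf4 -3.17, Cd163 -4.51, C1qc -3.47, Pdgfra -4.70 and Col3a1 -3.48. Scaled to genes outside the mitochondrial genome, Lama4 was -1.35, Cd34 -0.81, Cspg4 -1.03, Reln -1.44, Cd163 -0.76 and Pdgfra -0.85. Replicate numbers share only a number: deviations of same-numbered libraries correlated at 0.14 over genes, with 2 pairs. With the replicate block, 5 members were lower, and 1144 genes were lower and 630 higher. Depth limits the members to 26 and 52 reads in isolated mitochondria, and the median gene tested to 5 and 10.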

Other observations

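Angiogenesis genes as a wider group did not lie below all genes. Of 315 genes with that Gene Ontology term, members left out, 175 were tested and limma called 12 lower and 28 higher, against 9.3% and 7.32% of all genes tested, with a median log2 fold change of 0.12 where all genes had -0.44. With each library left out in turn, the lowest median was -0.11, without isolated mitochondria replicate 2, where all genes had -0.43. The highest was 0.31, without isolated mitochondria replicate 1, where all genes had -0.28. Scaled to the total of all genes, 169 were lower and 0 higher. On that scale 6694 of all 6916 genes tested were lower and 38 higher, so those counts are no result about angiogenesis genes.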
